A study of Mus musculus with 10 samples.

Results

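The transcriptomes of 2 Mbd3 mutants of mouse embryonic stem cells were set directly against each other: Mbd3abc KO, in which isoforms a, b and c are disrupted, and Mbd3cΔN-ab KO, in which a and b are disrupted and isoform c carries a deletion in its N-terminal part. The authors compared each mutant with wild type only, in a table per mutant that lists the transcripts called in that comparison. The 5413 transcripts present in both tables were compared here, out of 8728 present in at least 1 of the 2. They made up 66.5% of the Mbd3abc KO table and 90.2% of the Mbd3cΔN-ab KO table, so every transcript below had already been listed as changed from wild type in both mutants, and a transcript changed in a single mutant lies outside the comparison. Both mutants, and the wild type, are E14 cells, an established mouse ES cell line grown here on gelatin. Mutations were introduced with CRISPR/Cas9, in exon 5 of Mbd3 for Mbd3abc KO (genotype Mbd3abc -/-) and in exon 2 for Mbd3cΔN-ab KO (genotype Mbd3cdeltaN; ab-/-). Total RNA was sequenced after removal of ribosomal RNA, with 2 libraries in each group described as biological replicates. No source used here says whether a mutant's libraries stem from 1 clone or several, so p-values measure the spread between these libraries, which may be technical.

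Mbd3 is a subunit of NuRD, a complex that couples the nucleosome remodeller Chd4 to the histone deacetylases Hdac1 and Hdac2 at promoters and enhancers, and that ES cells need to silence genes and to leave the pluripotent state. The isoforms differ at the N-terminus: a and b carry the methyl-CpG binding domain whole or in part, and c starts from another exon. The study's title places an ES cell form of NuRD together with Wdr5, the shared core subunit of the COMPASS histone H3K4 methyltransferases. Isoforms a and b are disrupted in both mutants. Isoform c is disrupted in Mbd3abc KO and shortened in Mbd3cΔN-ab KO. The mutants also differ in the edited exon, and their clones may differ. What the shortened isoform c still does therefore cannot be told apart from these.

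Mbd3 itself was lower in Mbd3abc KO. Its level was 1775 and 1689 normalized reads in the wild type libraries, 315 and 307 in Mbd3cΔN-ab KO, and 108 and 158 in Mbd3abc KO. Normalized reads are whole reads divided by a size factor for library depth, and they compare libraries for a gene, not genes with each other, since they are not divided by length. Both mutants lay below wild type and their libraries did not overlap. The difference between the mutants, Mbd3abc KO minus Mbd3cΔN-ab KO, was -1.22 ± 0.20 (SE) on the log2 scale, a 2.33-fold lower level, with adjusted p = 0.0252 by edgeR's quasi-likelihood test. All log2 differences below have this direction and come from this test, as do the calls unless DESeq2 is named, adjusted over 5390 transcripts with at least 10 reads in the 4 mutant libraries. Mbd3 was called under 12 of the 19 alternative settings used below. It was not called with the 4 mutant libraries alone (adjusted p = 0.100 by the same test) or with GC content corrected. The counted transcript of Mbd3 (chr10:80392541-80399479, minus strand, mm10) stands for the whole gene, so isoforms were not told apart.

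The joined tables held between 3932616 reads, in an Mbd3cΔN-ab KO library, and 6964420, in a wild type library. Among the ES cell markers, 4 of 12 were listed in both tables and tested. Pou5f1, the core pluripotency factor, had 2816 and 4647 normalized reads in Mbd3abc KO and 4171 and 6878 in Mbd3cΔN-ab KO, with 10868 and 11648 in wild type. All 4 markers were lower than wild type in both mutants and lower still in Mbd3abc KO. Their median log2 difference was -0.49, or -0.17 with the correction for GC content given below. By edgeR 0 were called, with 2 lower at an unadjusted p under 0.05, and DESeq2 called 1 lower. Over all 5390 tested transcripts 663 were lower at that unadjusted p, and DESeq2 called 277 of 5285 lower. Of 19 fibroblast and feeder markers 2 were listed, Col1a1 at 12.5 to 26.7 normalized reads in the mutant libraries and Thy1 at 331 to 563. Neither was called between mutants by edgeR, with Thy1 at 0.62 (adjusted p = 0.0644), while DESeq2 called 1 of the 2 higher in Mbd3abc KO. The endoderm list had 6 of 26 genes listed and the mesoderm list 1 of 26.

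Mbd3abc KO lay further from wild type than Mbd3cΔN-ab KO in most of the shared transcripts. Of the 5413, 2778 were higher than wild type in both mutants, 2630 were lower in both, and 5 were on opposite sides. Among transcripts higher than wild type, 2502 of 2778 (90.1%) were higher still in Mbd3abc KO, with a median log2 difference of 0.36. Among those lower than wild type, 2333 of 2607 tested (89.5%) were lower still, with a median of -0.29. Library by library, the median distance from wild type on the log2 scale was 1.35 and 1.22 in Mbd3abc KO, and 0.97 and 0.91 in Mbd3cΔN-ab KO, so all transcripts together separated the mutants without overlap. The difference followed the GC content of the transcript. After the median deviation of each library was removed within 20 bins of GC content, the shares further from wild type were 57.1% and 56.0%.

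Few single transcripts passed the test. Of 5390 tested, 296 were called at an adjusted p under 0.05 (5.49%), of which 174 were higher in Mbd3abc KO (3.23% of those tested) and 122 were lower (2.26%). The change was at least 2-fold in 78 of the higher ones (1.45%) and 57 of the lower ones (1.06%). All but the 5 transcripts on opposite sides of wild type were further from wild type in Mbd3abc KO: 291 transcripts (5.4%), against 0 nearer to it (0.0%). At an unadjusted p under 0.05, 1660 transcripts passed (30.8%). Of these, 9 of the transcripts higher than wild type and 5 of those lower were nearer to wild type in Mbd3abc KO, against 991 and 650 further from it. DESeq2 called 3 nearer and 700 further. The libraries of the 2 mutants did not overlap in 3202 transcripts (59.4%), and in all 296 that were called. Called differences ran from -3.76 to 2.38 on the log2 scale, with a median size of 0.95, against 0.33 over all tested.

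The number of calls depended on single libraries. The test takes its spread from all 6 libraries, and the wild type pair was the tightest, with a median difference between its libraries of 0.128 on the log2 scale against 0.237 in Mbd3abc KO and 0.244 in Mbd3cΔN-ab KO. Without the first or the second wild type library 7 calls remained in each case, and with the 4 mutant libraries alone 8. With the mutant libraries alone 1260 of 5390 transcripts had an unadjusted p under 0.05, among them all 296. These had been picked with the same mutant libraries, so that was largely fixed in advance. Without the first Mbd3abc KO library there were 61 calls, without the second 351, without the first Mbd3cΔN-ab KO library 126 and without the second 34. The 8 calls from the mutant libraries alone were A2m, Pfkfb3, Tpi1, Ldhb, Bhlhe40, Ephx2, Notch4 and Zfp820, of which the last 4 were singled out after their values were seen. Other ways of scaling the libraries moved the median of all transcripts by under 0.1 but changed the split of calls. With TMM scaling 175 were higher and 186 lower, and with median-of-ratios scaling 170 and 171.

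**Figure D1:**
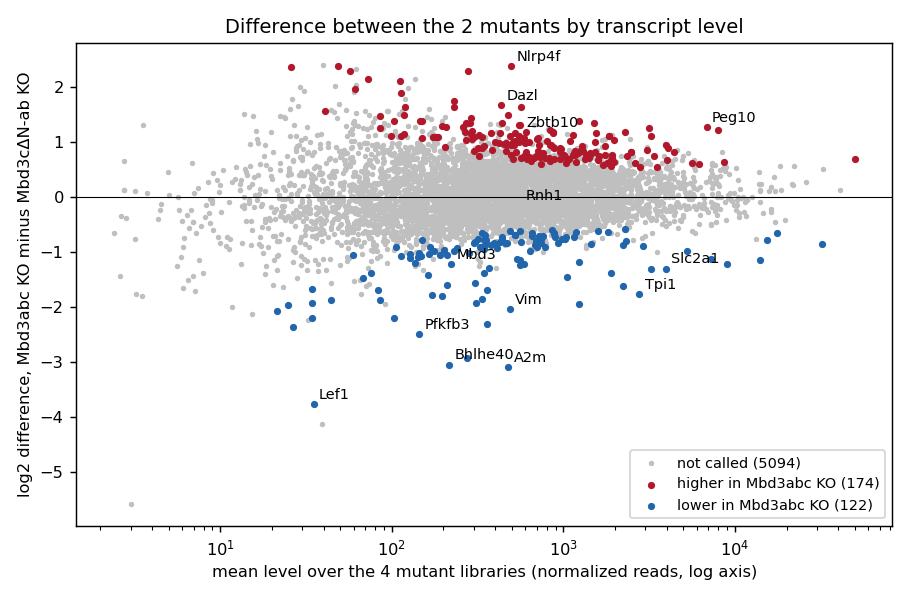
Log2 difference between Mbd3abc KO and Mbd3cΔN-ab KO (vertical axis) against the mean level over the 4 mutant libraries in normalized reads (horizontal log axis), 1 point for each of 5390 tested transcripts. Red points are the 174 called higher in Mbd3abc KO and blue points the 122 called lower; the lowest called point is Lef1 at -3.76, and Mbd3 lies at -1.22.

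The GC content separated the directions. Transcripts called higher in Mbd3abc KO had a median GC content of 41.8% and those called lower 54.9%, against 50.6% over all tested. In the class with the lowest GC content (29.8 to 42.6%) 95.1% of transcripts were higher in Mbd3abc KO, and 107 were called higher. In the class with the highest (57.0 to 71.3%) 13.9% were higher, and 44 were called lower. Across 5377 transcripts the rank correlation of the difference with GC content was -0.68, given as a description, since all transcripts share the same 4 mutant libraries. Correcting for GC content left 10 transcripts called higher and 27 lower, with 36 of the 296 calls kept, and by construction it removes any difference that follows GC content, whatever its source. A total of 47 called transcripts are named by the rule used here, and 18 of them were kept: A2m, AI314180, Aldoc, Clca4, Dpys, Ifitm1, Ldhb, Lef1, Mov10, Peg10, Pfkfb3, Pfkl, Sfmbt2, Slc16a3, Slc2a1, Tpi1, Upp1 and Vim. The remaining 29, Mbd3 among them (-0.87, adjusted p = 0.0608), were not. The part of GC content in each of these differences was not tested.

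**Figure D2:**
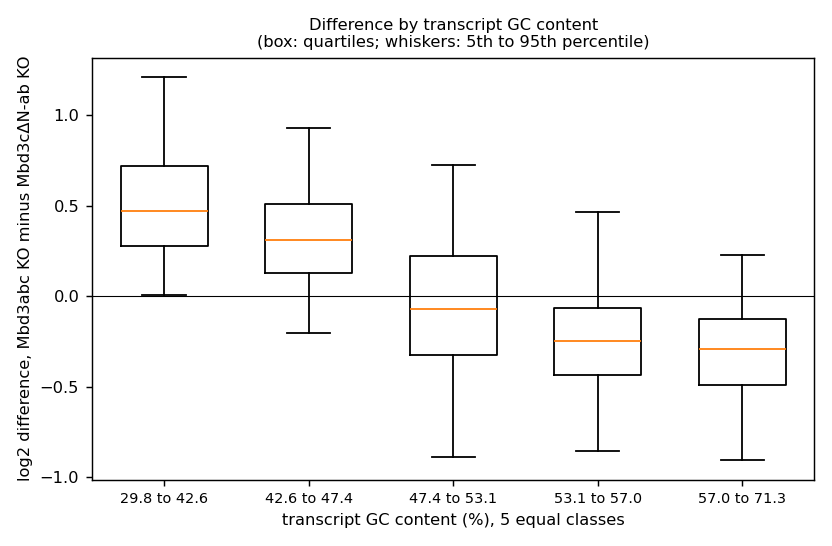
Log2 difference between Mbd3abc KO and Mbd3cΔN-ab KO (vertical axis) in 5 equal classes of transcript GC content in percent (horizontal axis). Boxes span the quartiles with the median as a line, and whiskers the 5th to 95th percentile; the medians go from 0.47 in the lowest class to -0.29 in the highest.

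Among transcripts at or above the median level, the largest differences downward in Mbd3abc KO were in A2m and Vim. A2m encodes alpha-2-macroglobulin, a secreted protease inhibitor (chr6:121636173-121679238, plus strand). It had 376 and 347 normalized reads in wild type, 873 and 840 in Mbd3cΔN-ab KO, and 88.9 and 112 in Mbd3abc KO. The mutants thus lay on either side of wild type, 8.54-fold apart, with a log2 difference of -3.09 ± 0.18 and adjusted p = 0.000845, the smallest of all transcripts. Vim, the intermediate filament vimentin, stepped down from 2047 and 1838 in wild type to 724 and 837 in Mbd3cΔN-ab KO and 246 and 136 in Mbd3abc KO. Mbd3abc KO was 4.09-fold lower (log2 -2.03 ± 0.26, adjusted p = 0.0151), and the lack of overlap between the mutants was part of the rule that named Vim. Upp1, the uridine phosphorylase of pyrimidine salvage, had 4079 and 4316 in wild type, 1628 and 2304 in Mbd3cΔN-ab KO and 601 and 422 in Mbd3abc KO. It was 3.84-fold lower in Mbd3abc KO (log2 -1.94 ± 0.22, adjusted p = 0.0122).

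Other genes lower in Mbd3abc KO act on RNA and chromatin. Mov10, an RNA helicase that restrains retroelements, had 2877 and 2622 normalized reads in Mbd3cΔN-ab KO and 1116 and 994 in Mbd3abc KO, from 6941 and 6897 in wild type. Its log2 difference was -1.38 ± 0.13 (adjusted p = 0.00439). Kdm4b, a demethylase of histone H3 lysine 9, had 630 and 1024 against 323 and 395, a difference of -1.21 ± 0.24. Bahcc1, a chromatin protein with a BAH domain, had 917 and 644 against 305 and 362, a difference of -1.22 ± 0.20. Both were highest in wild type, at 2161 and 1927 for Kdm4b and 1153 and 1130 for Bahcc1. Bhlhe40, a transcriptional repressor, and Notch4, a receptor of the Notch family, were named after their values were seen. Bhlhe40 had 1182 and 1165 normalized reads in wild type, 317 and 451 in Mbd3cΔN-ab KO and 37.7 and 55.3 in Mbd3abc KO. Notch4 had 1180 and 1046, 455 and 519, and 120 and 136 in the same order.

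Genes higher in Mbd3abc KO at or above the median level included the germ cell genes Nlrp4f and Dazl. Nlrp4f, an NLR family gene of oocytes, had 19.3 and 21.2 normalized reads in wild type, 254 and 70.3 in Mbd3cΔN-ab KO and 969 and 683 in Mbd3abc KO. The Mbd3cΔN-ab KO libraries differed widely from each other, and Mbd3abc KO was 5.10-fold higher (log2 2.38 ± 0.49, adjusted p = 0.0384). Dazl, which binds mRNAs in germ cells, had 15.4 and 15.5 in wild type, 216 and 198 in Mbd3cΔN-ab KO and 808 and 513 in Mbd3abc KO. Its log2 difference was 1.67 ± 0.24 (adjusted p = 0.0206). Nlrp4f has close paralogs that can share reads, so its value is uncertain.

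The remaining genes named upward belong to several roles. Smc4, a condensin subunit, had 1587 and 2145 normalized reads in Mbd3cΔN-ab KO and 4366 and 4588 in Mbd3abc KO, from 218 and 171 in wild type, a log2 difference of 1.26 ± 0.18. Baz1a, the Acf1 subunit of ISWI remodellers, had 605 and 401 against 1172 and 1175, from 279 and 312 in wild type, a difference of 1.23 ± 0.20. The remaining genes of this rule were Zbtb10 (1.63 ± 0.25), Slc25a40 (1.498 ± 0.181), 2610305D13Rik (1.38 ± 0.28), Zfp518a (1.35 ± 0.19), Depdc1a (1.34 ± 0.26) and Pgm2l1 (1.31 ± 0.20). Zbtb10 and Zfp518a are zinc finger proteins and Slc25a40 is a mitochondrial carrier. In these 6 genes and in Smc4 and Baz1a the wild type libraries were lowest. The rule that named them takes only transcripts without overlap between the mutants, so their separation was fixed in advance.

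**Figure D3:**
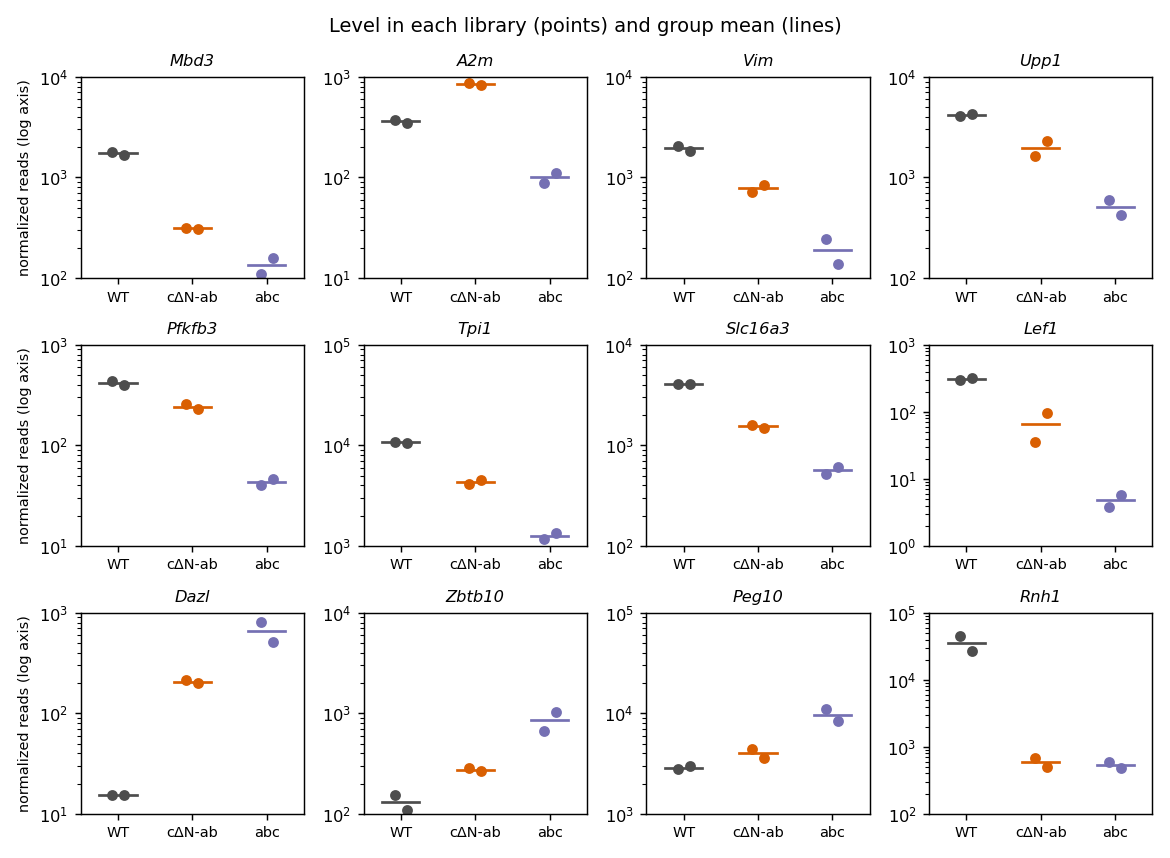
Level of 12 genes in each library in normalized reads (vertical log axis, with its own range in each panel) for wild type, Mbd3cΔN-ab KO and Mbd3abc KO; points are libraries and lines the mean of 2. In 10 panels Mbd3cΔN-ab KO lies between wild type and Mbd3abc KO; A2m lies on both sides of wild type, and the mutants overlap in Rnh1.

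Glycolysis and hypoxia response genes formed the list with the most calls. Glycolysis splits glucose into pyruvate, and the factor Hif1a switches on its enzymes, the glucose and lactate transporters and feedback genes such as Egln3 when oxygen is low; naive ES cells run glycolysis and respiration together. Of 24 tested members 14 were called lower in Mbd3abc KO and 1 higher, and 21 lay below 0, with a median log2 difference of -0.91. Over all 5390 transcripts 2.26% were called lower and the median was 0.02. Of these 24, 19 were lower than wild type in both mutants. Since the list was chosen with earlier results of these data known, its count is a description. With GC content corrected 7 members were called lower, with a median of -0.65. With the 4 mutant libraries alone 2 were called, and leaving out a single library gave 2, 2, 8, 16, 9 and 6 called lower, in the order of the 2 wild type, 2 Mbd3abc KO and 2 Mbd3cΔN-ab KO libraries.

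Pfkfb3 makes fructose 2,6-bisphosphate, the activator of phosphofructokinase. It had 442 and 401 normalized reads in wild type, 255 and 232 in Mbd3cΔN-ab KO and 40.6 and 45.8 in Mbd3abc KO, a log2 difference of -2.49 ± 0.20 (5.64-fold, adjusted p = 0.00258). Pfkl, a phosphofructokinase subunit, had 7536 and 7730, 5038 and 4148, and 1594 and 2107 in the same order of groups, a difference of -1.31 ± 0.17. The glucose transporter Slc2a1 had 11346 and 10807, then 4769 and 6481, then 1986 and 2581, a difference of -1.30 ± 0.19. In each of the 3 genes the groups were ordered wild type, Mbd3cΔN-ab KO, Mbd3abc KO without overlap. For Pfkl and Slc2a1 the gap between the mutants was part of the rule that named them. The glucose transporter Slc2a3 showed no such step between the mutants, with 9098 and 11911 in Mbd3cΔN-ab KO and 9041 and 11128 in Mbd3abc KO. Its difference was -0.06, with a 95% interval from -0.46 to 0.34.

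Enzymes of the lower steps and of lactate export followed the same order. Tpi1, triosephosphate isomerase, had 10843 and 10571 normalized reads in wild type, 4084 and 4492 in Mbd3cΔN-ab KO and 1164 and 1357 in Mbd3abc KO, a difference of -1.77 ± 0.14 (3.40-fold, adjusted p = 0.00258). Pfkfb3 and Tpi1, with A2m, were called under all 19 alternative settings. The aldolase Aldoc had 730 and 708, 551 and 503, and 111 and 180 in the order of groups above, a difference of -1.85 ± 0.23. Slc16a3, the lactate exporter of glycolytic cells, had 4105 and 4070, 1590 and 1502, and 513 and 612, a difference of -1.46 ± 0.14. The lactate dehydrogenases Ldha and Ldhb, of which Ldhb was not in the list, differed by -1.22 ± 0.27 and -1.62 ± 0.14. Ldhb had 4399 and 4422 in wild type, 3705 and 3005 in Mbd3cΔN-ab KO and 1084 and 1095 in Mbd3abc KO. Pgk1, Aldoa, Gpi1, Pkm and Gapdh, enzymes of the pathway, differed by -1.12 ± 0.19, -1.15 ± 0.16, -0.97 ± 0.18, -0.85 ± 0.18 and -0.65 ± 0.13. Their adjusted p-values were 0.0252, 0.0198, 0.0301, 0.0406 and 0.0336. Eno1, Hk2 and Pgam1 had values of -0.76, -0.65 and -0.42 and were not called.

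Members that respond to hypoxia without taking part in glycolysis were mixed. Egln3, the prolyl hydroxylase that marks Hif proteins for degradation, had 884 and 994 normalized reads in wild type, 493 and 697 in Mbd3cΔN-ab KO and 62.8 and 178 in Mbd3abc KO, a difference of -2.30 ± 0.41 (adjusted p = 0.0292). Ndrg1, a stress response gene, had 232 and 373 against 66.7 and 108, a difference of -1.80 ± 0.30. Hif1a itself was called in the other direction, at 1464 and 1627 in Mbd3cΔN-ab KO and 2446 and 2344 in Mbd3abc KO, with 814 and 727 in wild type. Its difference was 0.63 ± 0.13 (adjusted p = 0.0398), and 0.20 with GC content corrected (adjusted p = 0.454). Bnip3l, Mxi1 and Ero1l, which lay above wild type in both mutants, gave 0.06, -0.09 and -0.03 and were not called. The pyruvate and lactate carrier Slc16a1 also lay above wild type, with 0.21.

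**Figure D4:**
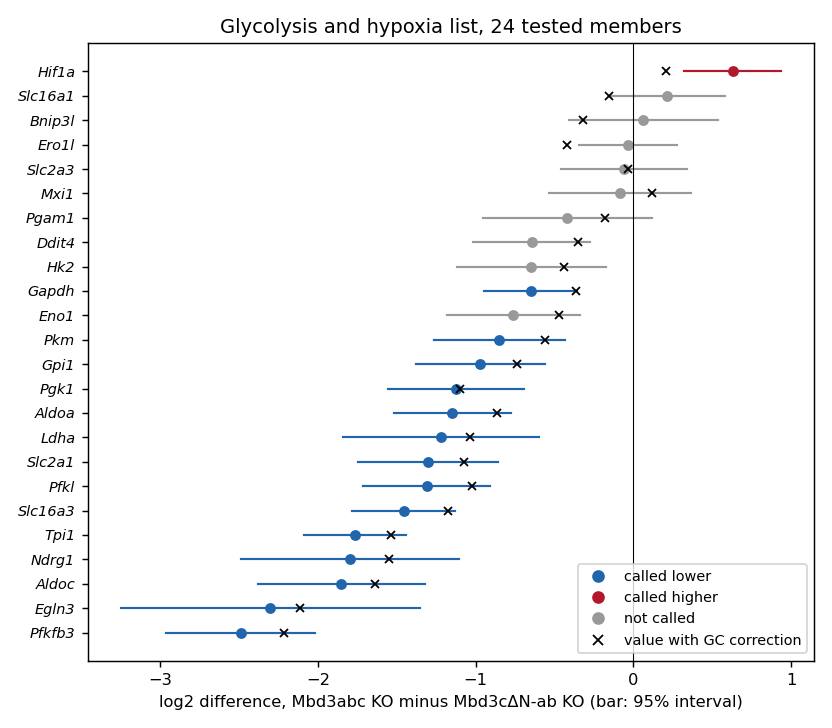
Log2 difference between Mbd3abc KO and Mbd3cΔN-ab KO (horizontal axis) for the 24 tested members of the glycolysis and hypoxia list; points are colored by call, bars are 95% intervals and crosses the values with GC content corrected. The 14 points called lower run from Pfkfb3 at -2.49 to Gapdh at -0.65, and the crosses of 22 members lie below 0.

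The promoters of 5 members called lower are shown because Hif1a, at the head of this pathway, binds a short core in DNA, written here as its letters ACGTG or GCGTG. Each is the 250 bases before the annotated start, 5′ to 3′ on the gene's strand, from RefSeq on GRCm38.p6, and in all 5 the start is that of the counted transcript. Capitals mark the core on either strand, so that CACGT and CACGC are its reverse complements.
Egln3 (chr12:54203875-54204124, minus strand): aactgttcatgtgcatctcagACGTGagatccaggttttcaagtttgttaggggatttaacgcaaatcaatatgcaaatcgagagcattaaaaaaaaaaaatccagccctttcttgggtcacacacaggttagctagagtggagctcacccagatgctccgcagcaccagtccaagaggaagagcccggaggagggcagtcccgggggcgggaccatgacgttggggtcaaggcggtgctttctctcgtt
Slc16a3 (chr11:120948817-120949066, plus strand): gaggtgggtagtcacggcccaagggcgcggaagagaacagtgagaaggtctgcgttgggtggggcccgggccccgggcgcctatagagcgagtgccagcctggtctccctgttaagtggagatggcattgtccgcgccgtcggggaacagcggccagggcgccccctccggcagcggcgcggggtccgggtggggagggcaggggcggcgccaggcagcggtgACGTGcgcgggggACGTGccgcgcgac
Slc2a1 (chr4:119108495-119108744, plus strand): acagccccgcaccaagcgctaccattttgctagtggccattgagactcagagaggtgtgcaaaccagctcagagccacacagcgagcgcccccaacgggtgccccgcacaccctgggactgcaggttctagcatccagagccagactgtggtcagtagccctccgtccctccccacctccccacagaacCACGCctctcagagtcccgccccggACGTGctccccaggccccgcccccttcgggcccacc
Pgk1 (chrX:106186850-106187099, plus strand): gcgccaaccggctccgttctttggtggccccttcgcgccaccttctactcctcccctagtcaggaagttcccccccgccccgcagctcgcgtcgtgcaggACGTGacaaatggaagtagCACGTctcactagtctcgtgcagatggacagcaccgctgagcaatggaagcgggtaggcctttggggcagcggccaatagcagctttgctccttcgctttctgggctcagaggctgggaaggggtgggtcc
Gpi1 (chr7:34230337-34230586, minus strand): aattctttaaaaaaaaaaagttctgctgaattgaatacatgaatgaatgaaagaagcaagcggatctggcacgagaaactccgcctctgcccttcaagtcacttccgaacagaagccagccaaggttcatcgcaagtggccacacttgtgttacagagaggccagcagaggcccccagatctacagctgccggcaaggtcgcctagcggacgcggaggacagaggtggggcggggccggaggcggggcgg
The promoters of Slc16a3, Slc2a1 and Pgk1 held 2 matches each, that of Egln3 held 1 and that of Gpi1 none, while Gpi1 was called lower as well. Of the 14 members called lower 13 had a promoter in the table, and 9 of these (69.2%) held a match. Among the members not called it was 5 of 6 (83.3%). Over the tested transcripts with a promoter 2460 of 4075 (60.4%) held a match, and over all promoters 10431 of 27025 (38.6%). These counts take the first promoter listed for a gene, which need not be that of the counted transcript. Its start lay 51839 bases away for Pfkfb3, 1278 for Ldha, 1269 for Aldoa and 1125 for Aldoc. A match says only that the letters are there.

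Of 5 tested NuRD genes edgeR called Mbd3 alone, with 2 others higher at an unadjusted p under 0.05, and DESeq2 called 1 more, which was higher. Over all tested transcripts edgeR called 5.49%, and 30.8% passed the unadjusted p in either direction. Mbd2, the methyl-CpG binding subunit that takes the place of Mbd3 in a separate form of NuRD, had 59.2 and 60.4 normalized reads in wild type, 136 and 151 in Mbd3cΔN-ab KO and 290 and 219 in Mbd3abc KO. The mutants did not overlap, and the difference was 0.82 ± 0.22 (adjusted p = 0.0663). The remodeller Chd3 gave 0.57 ± 0.17 (adjusted p = 0.0809), the deacetylase Hdac2 0.20 ± 0.14 and the remodeller Chd4 -0.19 ± 0.19. Of 12 tested Wdr5 and COMPASS genes 1 was called higher and 1 lower, with a median of -0.16. With GC content corrected the median was -0.002 and no member was called, and none was called with the 4 mutant libraries alone. Psip1, a reader of methylated histone H3 that also recruits MLL proteins, had 2439 and 2601 in Mbd3cΔN-ab KO and 4228 and 4289 in Mbd3abc KO, from 807 and 583 in wild type, a difference of 0.76 ± 0.17 (adjusted p = 0.0451). Kdm6b, an H3K27 demethylase, had 1049 and 1100 against 709 and 665, from 1719 and 1639 in wild type, a difference of -0.64 ± 0.13 (adjusted p = 0.0349). Wdr5 itself had 3911 and 3930 against 4177 and 5036, a difference of 0.23 with a 95% interval from -0.08 to 0.55, and was not called.

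Of 11 tested core pluripotency genes 10 were below 0, with a median log2 difference of -0.56. Of these 11 genes 9 were lower than wild type in both mutants, where 89.5% of all tested transcripts were lower still in Mbd3abc KO. The median was -0.28 with GC content corrected, -0.34 without the first Mbd3abc KO library and -0.33 without the second Mbd3cΔN-ab KO library. By edgeR 0 were called, with 6 lower and 1 higher at an unadjusted p under 0.05. DESeq2 called 3 lower. Over all 5390 transcripts 663 were lower and 997 higher at that unadjusted p, and DESeq2 called 277 lower and 431 higher of 5285. Tdh, the threonine dehydrogenase of mouse ES cells, had 3170 and 4220 normalized reads in Mbd3cΔN-ab KO and 1820 and 2739 in Mbd3abc KO, from 8495 and 8633 in wild type. Lefty1, an inhibitor of Nodal, had 260 and 611 against 158 and 247, from 1308 and 1314. In both genes the 2 libraries of a mutant lay far apart, and the differences were -0.70 ± 0.22 (adjusted p = 0.0860) and -1.12 ± 0.38 (adjusted p = 0.0985). The 10 naive pluripotency genes had a median of -0.13, or 0.07 with GC content corrected, and no calls by edgeR, with 1 higher and 2 lower at an unadjusted p under 0.05 and 1 call by DESeq2. Klf4, a naive state factor, gave 0.53 (adjusted p = 0.0689) and Nr0b1, another, -0.80 (adjusted p = 0.136). Lef1, a Wnt effector that also marks the formative state, had the largest called difference of all, from 35.4 and 95.2 in Mbd3cΔN-ab KO to 3.87 and 5.72 in Mbd3abc KO, where the 2 libraries held 10 reads together. Wild type had 297 and 319, and the difference was -3.76 ± 0.58 (adjusted p = 0.0252). It was the single call by edgeR among 9 formative and primed genes, where DESeq2 called 2 lower, and among 17 Wnt genes, where DESeq2 called 2 higher and 1 lower.

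Of 21 tested germline genes 2 were called higher and 1 lower, with a median of 0.17, and 14 were higher than wild type in both mutants. At an unadjusted p under 0.05, 7 were higher and 1 lower, where 30.8% of all transcripts passed in either direction. None of the 3 calls was kept with GC content corrected, and the median was 0.65 without the first Mbd3cΔN-ab KO library, 0.46 without the second, and 0.30 and 0.32 without the first and the second of Mbd3abc KO. Sycp2, of the synaptonemal complex that pairs meiotic chromosomes, had no reads in wild type, 6.32 and 9.78 normalized reads in Mbd3cΔN-ab KO and 51.2 and 35.3 in Mbd3abc KO, from 16 and 90 reads. Its difference was 2.37 ± 0.48 (adjusted p = 0.0435). Sycp3, of the same complex, had 104 and 61.4 against 341 and 153 and was not called (1.60 ± 0.46, adjusted p = 0.0735). Ddx4, the germ cell helicase Vasa, gave 1.14 ± 0.35 (adjusted p = 0.0824). The meiotic cohesin subunit Smc1b had 85.9 and 60.5 in Mbd3cΔN-ab KO and 90.9 and 54.4 in Mbd3abc KO, which overlapped, from 6.44 and 5.71 in wild type. Tuba3a, a testis tubulin with near-identical copies that can share reads, was lower, at -0.86 ± 0.16 (adjusted p = 0.0311).

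Placental and imprinted genes held calls in both directions. Peg10, a retrotransposon-derived gene needed for the placenta, had 2809 and 2966 normalized reads in wild type, 4408 and 3603 in Mbd3cΔN-ab KO and 10969 and 8359 in Mbd3abc KO, a difference of 1.27 ± 0.17 (adjusted p = 0.0198). Sfmbt2, a Polycomb family gene of extraembryonic tissue, moved the other way, with 1359 and 1335, then 457 and 631, then 211 and 127, a difference of -1.69 ± 0.26 (adjusted p = 0.0252). Eomes, a trophectoderm and mesoderm factor, had 249 and 223 against 491 and 413, from 78.5 and 61.2 in wild type, a difference of 0.94 ± 0.20 (adjusted p = 0.0400). These were the calls among 10 tested trophectoderm genes, and Peg10 and Sfmbt2 were those among 13 tested imprinted genes. Over all tested transcripts 5.49% were called. The medians of the 2 lists were -0.08 and 0.17. With GC content corrected Eomes was not called, and with the 4 mutant libraries alone no member of either list was called. Of 16 epithelial junction and adhesion genes 11 were above 0 and 5 below, with a median of 0.26. Pkp2, a desmosome protein, was called lower (-0.82 ± 0.17), against the direction of most of the list. Another called member is not reported here, and no member was called with GC content corrected. Cdh1, the epithelial cadherin of ES cells, gave 0.25 and was not called.

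In the p53 target list edgeR called 1 of 20 tested members and DESeq2 called 6, all higher in Mbd3abc KO. Over all tested transcripts edgeR called 3.23% higher, and DESeq2 called 431 higher and 277 lower of 5285. Trp53inp1, an inducer of p53-dependent arrest, had 878 and 848 normalized reads in wild type, 3619 and 2806 in Mbd3cΔN-ab KO and 6477 and 4835 in Mbd3abc KO, a difference of 0.82 ± 0.19 (adjusted p = 0.0471). Mdm2, the p53 ubiquitin ligase, had 1518 and 899 against 3213 and 2044 and gave 1.12 ± 0.28 (adjusted p = 0.0564). Trp53inp1 was not called with TMM scaling, median-of-ratios scaling, equal totals, limma with pseudocount 1, GC content corrected or the 4 mutant libraries alone, nor without any single library other than the second of Mbd3abc KO, where 4 members were called. The median of the list was 0.40, or 0.23 with GC content corrected, and it was 0.24 without the first Mbd3abc KO library, and 0.70 and 0.17 without the first and the second of Mbd3cΔN-ab KO. Trp53 itself gave -0.07 with a 95% interval from -0.35 to 0.22. In the Polycomb list Aebp2, a cofactor of PRC2, was called higher among 24 members, with 1104 and 1224 against 2847 and 2205 and a difference of 1.12 ± 0.16. Suz12, a core subunit of PRC2, gave 0.55 (adjusted p = 0.0627). Of the 24 members 14 were above 0 and 10 below, with 5 higher and 5 lower at an unadjusted p under 0.05. DESeq2 called 2 of them higher and 3 lower. Over all 5390 transcripts 997 were higher and 663 lower at that unadjusted p. The median of the Polycomb list was 0.19, or 0.02 with GC content corrected, where no member was called. Among 36 cell cycle genes Cenpe, a kinetochore motor, was called higher (1.11 ± 0.19). Ccnd2, cyclin D2, gave -4.12 ± 1.06 and was not called (adjusted p = 0.0602), with 12.6 and 135 in Mbd3cΔN-ab KO against 2.90 and 5.72.

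Of 38 tested replication-dependent histone genes, all lower than wild type in both mutants, 33 were below 0, with a median of -0.44, against 89.5% of all tested transcripts lower than wild type. The median was -0.22 with GC content corrected, -0.22 and -0.69 without the first and the second Mbd3cΔN-ab KO library, and -0.70 without the second of Mbd3abc KO. By edgeR 0 were called. At an unadjusted p under 0.05 edgeR passed 12, all lower, and DESeq2 called 5. Over all transcripts 30.8% passed that p in either direction, and DESeq2 called 708 of 5285, so the histone counts lie near these shares. Among all transcripts lower than wild type, 650 passed that p lower still and 5 nearer to wild type. The histone genes are near-identical to each other and end without a poly(A) tail, so reads can be shared among them. Of 12 tested cholesterol synthesis genes 11 were below 0, with a median of -0.58, or -0.40 with GC content corrected. By edgeR 0 were called, 2 had an unadjusted p under 0.05, and DESeq2 called 1. The median was -0.20 without the first Mbd3abc KO library, and -0.92 with 7 calls without the second. Among 12 interferon response genes the membrane proteins Ifitm1 and Ifitm2 were called lower, at -1.18 ± 0.16 and -0.86 ± 0.17, and they share sequence. At an unadjusted p under 0.05, 2 of the 12 were higher and 3 lower, and DESeq2 called 1 higher and 2 lower. The median of these 12 was -0.27, or 0.01 with GC content corrected, where Ifitm1 alone was called. Of 39 tested ribosomal protein genes Rpl23 was called (0.61 ± 0.14, adjusted p = 0.0491), with a median of 0.11. The DNA methylation, neuroectoderm, endoderm and 2-cell lists had no call by edgeR among 12, 7, 6 and 3 tested members. They had 4, 1, 0 and 0 higher and none lower at an unadjusted p under 0.05, and DESeq2 called 2, 0, 0 and 0.

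**Figure D5:**
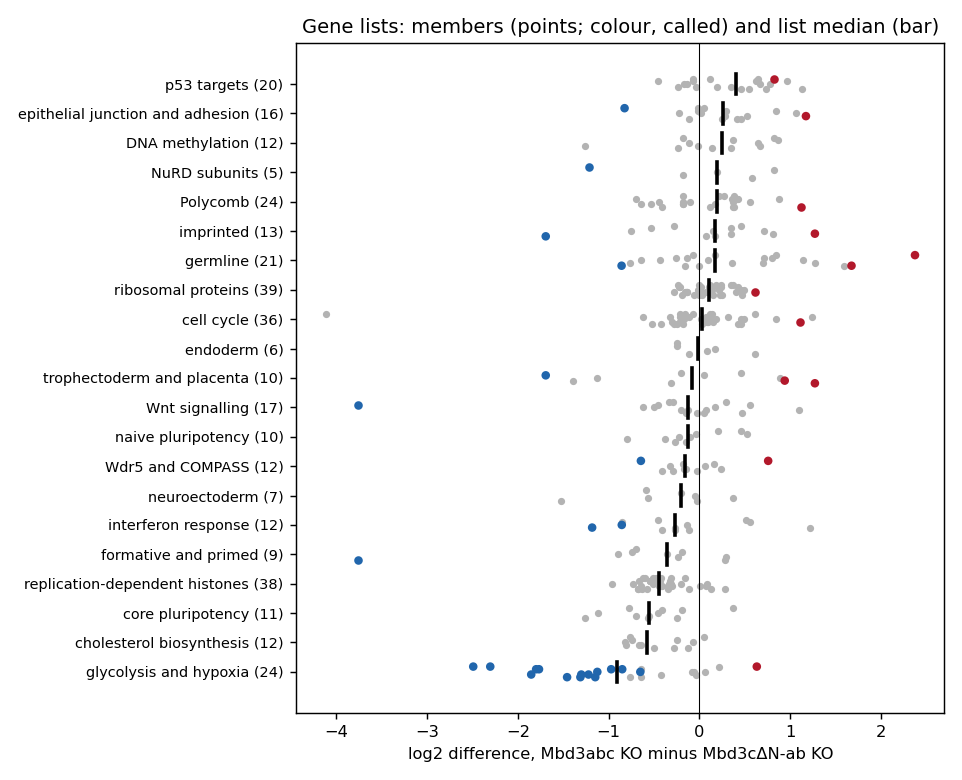
Log2 difference between Mbd3abc KO and Mbd3cΔN-ab KO (horizontal axis) for the tested members of 21 gene lists (rows, number tested in brackets); colored points were called, gray points were not, and bars are list medians. Medians run from -0.91 for glycolysis and hypoxia to 0.40 for p53 targets, against 0.02 over all tested transcripts.

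The mutants lay on opposite sides of wild type in 5 transcripts, which the deposited tables alone fix to differ. Besides A2m these were AI314180, Dpys, Clca4 and Hydin. AI314180 (chr4:58800031-58912725, minus strand) had 490 and 524 normalized reads in wild type, 316 and 317 in Mbd3cΔN-ab KO and 720 and 849 in Mbd3abc KO. Dpys, a dihydropyrimidinase of pyrimidine breakdown, had 75.9 and 84.0, then 193 and 143, then 34.8 and 38.2. Clca4 had 75.9 and 69.3, 110 and 143, and 38.7 and 40.1, and Hydin, a protein of motile cilia, 135 and 172, 213 and 261, and 98.6 and 80.1. In the authors' deposited table for each mutant the log2 fold changes from wild type of A2m were -1.80 in Mbd3abc KO and 1.23 in Mbd3cΔN-ab KO.

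In 138 transcripts the mean level was at least 8-fold from wild type in both mutants. Of these 22 (15.9%) were called different between the mutants, against 5.49% over all tested. The 6 with the smallest interval of the difference around 0 are given here. The ribonuclease inhibitor Rnh1 had 44494 and 26858 normalized reads in wild type, 686 and 495 in Mbd3cΔN-ab KO and 584 and 481 in Mbd3abc KO. The mutants overlapped, and the difference was -0.15 with a 95% interval from -0.77 to 0.47. The histone gene Hist1h2bn had 5721 and 4491, 571 and 520, and 446 and 437, with an interval from -0.67 to 0.06. Smc1b, given above, had an interval from -0.82 to 0.81. For the zinc finger genes Zfp229, Gm14322 and Zfp654, at 33.4 to 61.8 in wild type and 326 to 1169 in the mutant libraries, the intervals ran from 0.11 to 0.96, from -0.39 to 0.97 and from 0.01 to 1.04, and none was called. Zfp229 and Gm14322 have close paralogs that can share reads. These intervals allow differences of up to about 2-fold, so the genes were not shown to be alike in the mutants.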

How the data were processed

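The authors' tables for the 2 mutants were joined by transcript identifier. Reads over exons were counted with HOMER by strand (setting: minus), keeping 1 transcript a gene, per the file headers, and DESeq2 compared the mutant with wild type. TopHat2 and mm10 are named in the submitters' processing notes, and no source used here gives the tools' versions. The deposited read columns hold a normalized signal, scaled to equal totals within a table. The authors deposited log2 fold changes with SE, used here for the side of wild type, and adjusted p-values, used for 1 alternative; in 9 of the joined transcripts that p was 0.05 or more in a table. Per the labels' protocols, reagents of NEB and Clontech served for depletion and library making, and which served which library is not given.

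Whole reads were recovered from the signal (100% of values whole within 0.05), and they were the same in both tables for the wild type libraries (0 differed). Size factors came from the deposited mean level, and the tables were linked by the mean log ratio of the 2 wild type size factors (0.949 and 0.956). edgeR 4.0.16 (quasi-likelihood) fitted all 6 libraries in 3 groups with these size factors as offsets, for transcripts with at least 10 reads over the 4 mutant libraries (23 left out), with Benjamini-Hochberg adjustment. This test was written down for recovered reads, with limma 3.58.1 on log2(level + 1) or log2(level + 8) and DESeq2 1.42.0 as alternatives. It was tested on simulated data. GC content came from GENCODE M21 transcripts (99.7% matched). R 4.3.3 and Python were used.

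The named genes are Mbd3, the 12 called transcripts with the largest difference in each direction at or above the median level with no overlap, up to 4 called members of each list, called transcripts on opposite sides of wild type, and up to 6 transcripts at least 8-fold from wild type in both mutants with the smallest interval around 0. Of the genes that the rule names, 1 is not reported here. Other genes are given as uncalled members with values, or as named after their values were seen. The members and the 25 gene lists were chosen with earlier results of these data known. Values come with a counting error that PCR copies, which were not marked, can exceed.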

Additional observations from a re-analysis of the deposited data

Results flagged for a closer look

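The mutants were placed on opposite sides of wild type in 5 transcripts, with all 4 mutant libraries on the side of their group. The deposited tables alone fix these transcripts to differ, so the values below are a description and add no support. The log2 difference, Mbd3abc KO minus Mbd3cΔN-ab KO, was -3.09 for A2m, -2.20 for Dpys, -1.69 for Clca4, -1.41 for Hydin and 1.31 for AI314180. By edgeR their adjusted p-values were 0.000845, 0.0148, 0.0252, 0.0270 and 0.0125. With GC content corrected A2m, Dpys, Clca4 and AI314180 were still called and Hydin was not.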

How the results depend on the processing

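Of 174 called higher, 122 lower, 291 further from wild type and 0 nearer, in that order, the following counts moved by over 1.5 times or from 0. TMM scaling gave 186 lower. DESeq2 gave 431, 277, 700 and 3. The 4 mutant libraries alone gave 1, 7 and 7, and GC correction gave 10, 27 and 33. Transcripts with the authors' adjusted p under 0.01 in both tables, fewer of which were tested (4114), gave 274 higher and 1 nearer. Leaving out each library in turn gave 0 to 182 higher, 7 to 169 lower, 6 to 346 further and 0 to 2 nearer, where a lone library is assumed to vary like the other groups. The causes were not tested. Under the other scalings, table links, read filters and limma fits the counts moved by less, with 162 to 178 higher except for limma with pseudocount 1, which gave 119. No called difference of a named gene changed sign, and GC correction turned the sign of 3 of the 296 calls. Of 47 named calls 4 were kept without either wild type library and 13 without the second Mbd3cΔN-ab KO library. No paired analysis was possible because the columns carry no replicate number. Transcripts with few reads, such as Lef1 with 10 in Mbd3abc KO, carry wide intervals.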

Other observations

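Transcripts listed for a single mutant were not compared between mutants, and the authors' deposited table for that mutant gives their values. After leaving out symbols listed for both under another transcript, 2638 were listed for Mbd3abc KO alone, 1397 higher and 1241 lower than wild type, and 497 for Mbd3cΔN-ab KO alone, 205 higher and 292 lower. In the authors' deposited table for Mbd3abc KO their median size of log2 fold change was 0.90, against 1.26 for transcripts listed for both mutants, and in that for Mbd3cΔN-ab KO it was 0.68 against 0.91. Absence from a table of called transcripts does not give the value in that mutant, so no difference between the mutants follows. Among genes above the median level listed for Mbd3abc KO alone, the largest changes in the authors' deposited table were 2.60 for Ptpn14, a phosphatase that restrains Yap, -2.50 for Pcyt1b, an enzyme of phosphatidylcholine synthesis, 1.97 for the kinase Plk2 and -1.95 for Bnip3, a hypoxia-responsive mitophagy receptor. For Mbd3cΔN-ab KO alone the authors' deposited table has -1.70 for Tfap2c, a factor of germ cells and trophoblast, -1.39 for Zic2, a zinc finger factor, and -1.10 for Aars, the alanyl-tRNA synthetase.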
